A study of Rattus norvegicus with 18 samples.

Results

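Gene expression around the CaP scaffold was compared between week 6 and week 2 of bone repair in the rat. CaP is a scaffold 3D-printed from polycaprolactone (PCL), a slowly degrading polyester, and loaded with calcium phosphate microparticles. The comparison uses the 6 CaP libraries of a series of 18, chosen by their labels alone: 3 libraries from week 6 and 3 from week 2. All 6 carry the genotype label WT and the tissue label of repair bone, and the week since implantation is the only labelled difference between the groups. The implant site was a defect of critical size in the radius, a gap too large to close unaided. Marrow and bone within 1 mm of it were taken and each was digested to free its cells. Both cell suspensions were then combined before polyadenylated RNA was sequenced, so marrow and bone were not measured apart. Red blood cells were lysed first. Neither the strain, sex and age of the rats nor whether each library came from an animal of its own is given in the sources used here, and p-values measure only the spread between libraries, which may be technical in part. In such bulk samples, fewer cells of a type and less RNA per cell cannot be told apart.

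Bone defects heal through overlapping stages. Inflammatory cells and a loose, vascular, fibrous tissue come first, cartilage and woven bone follow, and osteoclasts with osteoblasts later remodel the new bone while the marrow refills with blood-forming cells. Calcium phosphate is a mineral close to that of bone and is used in scaffolds as a surface on which bone can be laid down. The later and the earlier samples were therefore compared for bone, cartilage, fibrous, vascular, blood-forming and immune genes.

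No gene passed the test. With edgeR's quasi-likelihood test, 0 of 11814 genes were called higher at week 6 and 0 were called lower (adjusted p under 0.05, 0% in each direction). The smallest adjusted p was 0.412, for Tnmd, and that of every other gene was at least 0.87. An unadjusted p under 0.05 was reached by 570 genes (4.82%), where 591 would reach it by chance, and 205 of them (1.74%) were higher and 365 (3.09%) lower at week 6. DESeq2 called 5 genes: Tubb4a was higher at week 6, and Tnmd, Pycr1, C1qtnf3 and Adamts18 were lower. Limma voom with quality weights called 0. Differences below are log2 fold changes of week 6 over week 2 ± their standard error (SE), derived from edgeR's test. Levels are CPM (read counts scaled to the library's total as normalised by edgeR) in each library, listed by replicate number.

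**Figure D1:**
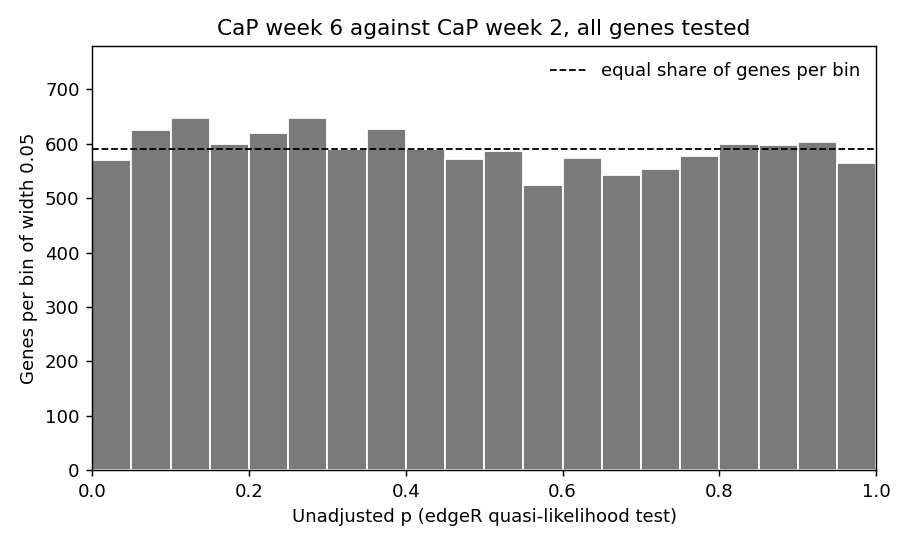
Number of genes (vertical axis) in each of 20 bins of the unadjusted p of edgeR's test of CaP week 6 against CaP week 2 (horizontal axis), with a dashed line at the 591 genes of an equal share. The bins hold between 525 and 647 genes, and the lowest bin, p under 0.05, holds 570.

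The intervals, each for 1 gene and not adjusted for the number of genes, show which sizes of difference the data exclude. Among the 10090 genes with a mean log2 CPM of at least 1, the median SE was 0.18 and the median half-width of the 95% interval was 0.39, or 1.31-fold. In 8337 of them (82.6%) the whole interval lay within 2-fold in either direction. The fold change exceeded 2-fold in 480 genes, 191 higher and 289 lower at week 6. CPM ranges of the weeks did not overlap in 1638 genes (13.9%), with week 6 above in 701 (5.93%) and below in 937 (7.93%), and 47% of all genes had a difference above 0. These shares are the background against which the counts of each gene group are set. The gene groups were chosen with earlier results of these data known, so those counts are descriptions only. The members of a group were measured in the same 6 libraries, so they are not independent of each other.

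The libraries of a week differed from each other about as much as from those of the other week. The median absolute log2 difference between libraries was 0.151 to 0.183 within week 6, 0.172 to 0.241 within week 2 and 0.138 to 0.258 between the weeks. Library totals ran from 20686683 to 27186587 reads at week 6 and from 23627362 to 25170097 at week 2. Defining markers of the pooled tissue were present in all 6 libraries: the bone collagen gene Col1a1 at 6561 to 25367 CPM, the osteoclast phosphatase gene Acp5 at 99.3 to 219 CPM, the neutrophil gene S100a8 at 4332 to 8469.8 CPM, the red cell factor Klf1 at 196 to 319 CPM, the macrophage gene Cd68 at 136 to 319 CPM and the T cell receptor subunit gene Cd3e at 7.19 to 15.3 CPM. The keratinocyte gene Krt14 was at 0 in all 6 and Krt5 at 0 in all but replicate 3 of week 2.

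Fibrous matrix and tendon genes lay furthest on the lower side at week 6. Of the 20 tested genes of the fibroblast and connective matrix list, 19 were below 0, their median was -1.13, against -0.02 over all genes, and none was called. In 8 of the 20, every week 6 library lay below every week 2 library, and 7 had an unadjusted p under 0.05. Over all genes the shares were 7.93% and 3.09%. Tnmd encodes tenomodulin, a membrane protein of tendon and ligament cells. It had 0.278, 0.0436 and 0.0949 CPM at week 6, against 2.1, 1.55 and 6.31 CPM at week 2, from 8, 1 and 2 reads at week 6, against 51, 37 and 160 reads at week 2. The ranges do not overlap, and the difference was -4.46 ± 0.77 (95% interval -6.10 to -2.82). Leaving out 1 CaP library at a time gave -5.48 to -3.59 for Tnmd. The median of the list was -0.74 without replicate 3 of week 2 and -1.38 without replicate 1 of week 6.

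Thbs2, which encodes the matricellular protein thrombospondin 2, had 5.98, 2 and 10.4 CPM at week 6, against 20.3, 24.1 and 56.2 CPM at week 2. Every week 6 value lay well below the lowest week 2 value, and the difference was -2.46 ± 0.65. Type V collagen starts and thins collagen fibrils, and its chain gene Col5a1 had 142, 76.1 and 153 CPM at week 6, against 215, 260.1 and 469 CPM at week 2, a difference of -1.35 ± 0.46. The partner chain gene Col5a2 had 193, 128 and 219.7 CPM at week 6, against 252, 351 and 573 CPM at week 2 (-1.12 ± 0.39). Both were lower in every week 6 library than in any week 2 library, and replicate 3 of week 2 was the highest in both. Postn, the gene of periostin, a matrix protein of the periosteum and of healing tissue, had 31.1, 10.2 and 12.7 CPM at week 6, against 49.7, 47.2 and 134 CPM at week 2 (-2.09 ± 0.87), again without overlap. Tagln, a smooth muscle and myofibroblast gene, differed by -1.70 ± 0.74, and Lox, which crosslinks collagen, by -1.33 ± 0.48. Among the small proteoglycans, Lum differed by -1.29 ± 0.62, Bgn by -1.07 ± 0.52 and Dcn by -0.73 ± 0.39, and their intervals reach above 0.

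Col3a1, the type III collagen gene of early repair tissue, had 820.2, 222 and 256 CPM at week 6, against 1035, 699 and 1986 CPM at week 2. The values overlap, since replicate 1 of week 6 exceeds replicate 2 of week 2, and the difference was -1.52 ± 0.85. Fn1, the fibronectin gene, was the only member above 0, at 0.45 ± 0.37, with 7147, 3091 and 3129.6 CPM at week 6, against 2941, 2626 and 4188 CPM at week 2. That value rests on replicate 1 of week 6: without it the difference was -0.05. Summed over the list, the level was 9081, 3810.1 and 4512 CPM at week 6, against 5397, 4853 and 9136 CPM at week 2, so the sum, in which Fn1 weighs heavily, does not separate the weeks.

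**Figure D2:**
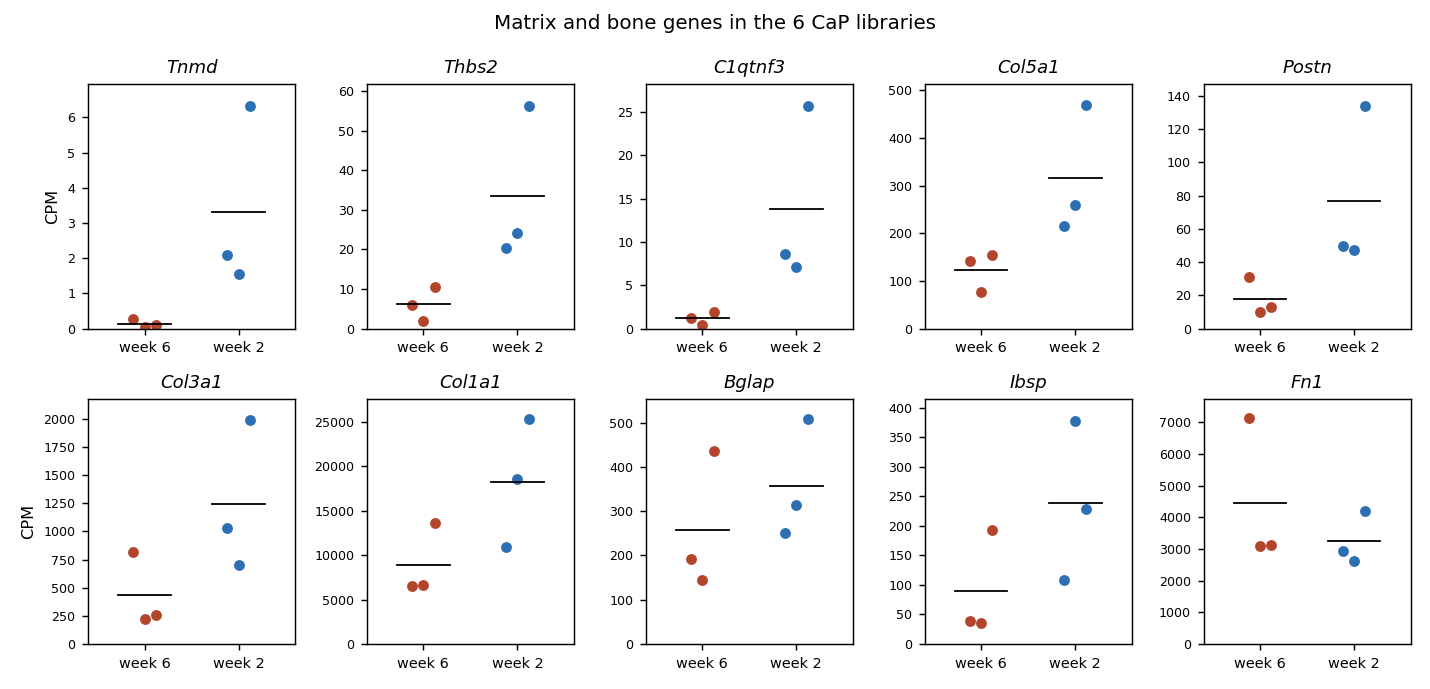
Level in CPM (vertical axes, each from 0) of 10 matrix and bone genes in the 3 CaP libraries of week 6 (red) and the 3 of week 2 (blue), with the mean as a bar. The weeks do not overlap for Tnmd, Thbs2, C1qtnf3, Col5a1 and Postn, and they overlap for the other 5 genes.

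Bone-forming genes were also mostly on the lower side. Of 18 tested osteoblast and bone matrix genes 16 were below 0, with a median of -0.63. In 4, week 6 was below week 2 without overlap, and 3 had an unadjusted p under 0.05. Over all genes these shares were 7.93% and 3.09%. Col1a1, the gene of the main collagen of bone, had 6561, 6660.0 and 13583 CPM at week 6, against 10960.1, 18573 and 25367 CPM at week 2. Replicate 3 of week 6 lies above replicate 1 of week 2, so the ranges overlap, and the difference was -1.03 ± 0.41 (95% interval -1.90 to -0.16). Bmp3, an antagonist among the bone morphogenetic proteins, differed by -1.36 ± 0.48. Dlx3, a homeobox factor of mineralising cells, differed by -1.02 ± 0.43. Neither overlapped between the weeks, both at low levels, with 0.626, 0.479 and 0.901 CPM at week 6, against 1.03, 2.55 and 1.58 CPM at week 2 for Bmp3.

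The transcription factors of the osteoblast lineage differed less. Runx2, needed for cells to become osteoblasts, had 39.4, 35.9 and 37.4 CPM at week 6, against 45.8, 41 and 38.5 CPM at week 2, a difference of -0.15 ± 0.14 whose 95% interval, -0.46 to 0.15, excludes a 2-fold difference either way. Sp7, which acts after Runx2, had 1.7, 2.05 and 3.99 CPM at week 6, against 4.19, 4.52 and 4.58 CPM at week 2. Its ranges do not overlap, with replicate 3 of week 6 near the week 2 values, and the difference was -0.79 ± 0.41 (-1.67 to 0.10). Alpl, the alkaline phosphatase that releases phosphate for mineral, differed by -0.31 ± 0.27.

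Genes of the mineral-binding proteins varied widely within a week. Ibsp, bone sialoprotein, had 39, 34.5 and 193 CPM at week 6, against 108, 378 and 228 CPM at week 2, and Bglap, osteocalcin, had 192, 144 and 437 CPM at week 6, against 249.7, 313 and 509 CPM at week 2. In both, replicate 3 of week 6 was the only high library of its week, and the differences were -1.42 ± 0.67 and -0.47 ± 0.42. Sparc, osteonectin, differed by -0.84 ± 0.46. Spp1, osteopontin, which macrophages and osteoclasts also make, was above 0 at 0.60 ± 0.58 with 1862, 385 and 643 CPM at week 6, against 394, 471 and 1039 CPM at week 2; without replicate 1 of week 6 the difference was -0.29. Summed over the list the level was 10394, 8494 and 18442 CPM at week 6, against 14218, 23262 and 32079 CPM at week 2. Without replicate 3 of week 6 the list's median was -1.24, and without replicate 1 of week 6 it was -0.32.

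Of 9 tested osteocyte genes 7 were below 0 (median -0.89), 4 of them without overlap, against 7.93% of all genes. The list's median was -0.53 without replicate 2 of week 6. Ptprz1, a receptor phosphatase, differed by -1.58 ± 0.57, Phex, which regulates phosphate, by -1.37 ± 0.63, and Irx5, a homeobox factor, by -1.04 ± 0.48. Dmp1, a mineralisation protein of osteocytes, had 8.24, 5.31 and 32.9 CPM at week 6, against 12.7, 24 and 27.3 CPM at week 2 (-0.47 ± 0.59). Sost, the Wnt inhibitor of mature osteocytes, was near the detection limit at 0.104 to 0.534 CPM, and its difference of -0.89 ± 0.67 has an interval of -2.31 to 0.54.

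Cartilage genes split the libraries across the weeks rather than between them. Col2a1, the main cartilage collagen gene, had 58.5, 58.8 and 4389.7 CPM at week 6, against 1901, 1547 and 3759 CPM at week 2: replicate 3 of week 6 was the highest of all 6 libraries, and the other 2 week 6 libraries were the lowest. Acan, the cartilage proteoglycan aggrecan, had 36.2, 6.23 and 286 CPM at week 6, against 114, 104 and 284 CPM at week 2, with the same 2 libraries low. The differences were -0.68 ± 1.80 and -0.61 ± 1.27, with intervals of -4.53 to 3.17 and -3.32 to 2.09. Summed over 15 tested chondrocyte genes the level was 403, 332 and 6420.2 CPM at week 6, against 2930.1, 2682 and 5873 CPM at week 2, and 10 of the 15 were below 0 (median -0.47). Without replicate 3 of week 6 the median was -2.98, and without replicate 1 of week 6 it was 0.09. Col11a1, a fibril collagen of cartilage that osteoblasts also express, had 89.2, 99 and 471 CPM at week 6, against 306, 419 and 629 CPM at week 2. The library with high cartilage genes at week 6 is also the one with the high Ibsp, Bglap and Dmp1 levels, and the part of cartilage in those values was not tested.

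**Figure D3:**
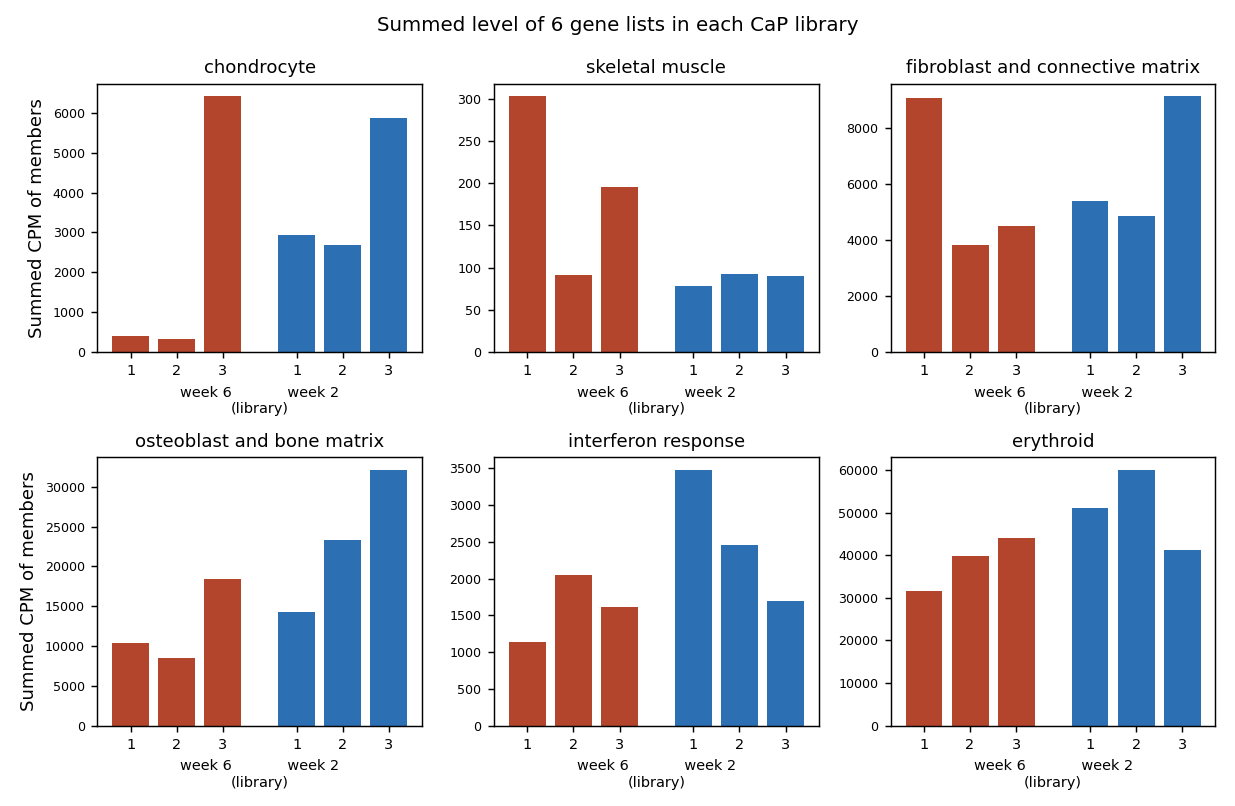
Summed CPM (vertical axes, each from 0) of the tested members of 6 gene lists in each CaP library, week 6 in red and week 2 in blue, by replicate number. Chondrocyte genes sum to 6420.2 CPM in replicate 3 of week 6 but to 403 and 332 CPM in replicates 1 and 2, and skeletal muscle genes to 303 and 196 CPM in replicates 1 and 3 of week 6.

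Bone-resorbing and matrix-degrading genes had no common direction. Of 14 tested osteoclast genes 9 were above 0 (median 0.14), 2 with week 6 above and 1 with week 6 below without overlap. Over all genes these shares were 5.93% and 7.93%. Acp5 had 219, 99.3 and 148 CPM at week 6, against 134, 201 and 135 CPM at week 2 (-0.01 ± 0.29). Ctsk, the collagen-cleaving protease cathepsin K, had 239, 27 and 108 CPM at week 6, against 114, 168 and 131 CPM at week 2, so week 6 held both the highest and the lowest library, and the difference was -0.15 ± 0.61. Nfatc1, the factor that starts osteoclast formation, had 83.4, 72.7 and 69.3 CPM at week 6, against 66, 69.1 and 62.9 CPM at week 2, higher in every week 6 library by a small amount (0.19 ± 0.12). Clcn7, the chloride transporter of the resorbing membrane, was likewise higher without overlap (0.30 ± 0.25), while Car2, the carbonic anhydrase that supplies acid and is also a red cell enzyme, was lower (-0.55 ± 0.26). Siglec15, a receptor for osteoclast fusion, differed by 1.23 ± 0.60, and by 0.31 without replicate 1 of week 6. Tnfrsf11b, osteoprotegerin, which blocks the osteoclast signal RANKL, had 15.4, 5.71 and 4.98 CPM at week 6, against 1.69, 3.72 and 5.05 CPM at week 2 (1.32 ± 0.59), and 0.63 without that library.

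Among 21 tested proteases and inhibitors 11 were above 0 (median 0.00). Mmp12, the elastase of macrophages, had 431, 91.6 and 43.6 CPM at week 6, against 30, 25 and 65.1 CPM at week 2 (2.24 ± 0.79). Mmp3, stromelysin, had 87.9, 26.4 and 9.77 CPM at week 6, against 7.97, 6.86 and 9.31 CPM at week 2 (2.36 ± 0.95). For both, replicate 1 of week 6 was several times the next library, and without it the differences were 0.77 and 1.19. Mmp16, a membrane-bound protease, was lower in every week 6 library (-1.42 ± 0.44). Mmp13, the collagenase of hypertrophic cartilage and osteoblasts, had 45.9, 11.2 and 57.2 CPM at week 6, against 37.9, 109 and 77.1 CPM at week 2 (-0.97 ± 0.64), and Mmp9, of osteoclasts and neutrophils, differed by 0.19 ± 0.24 with an interval of -0.32 to 0.70.

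Skeletal muscle genes were the only list with every tested member above 0: 17 of 17, with a median of 1.35, 5 without overlap and 4 with an unadjusted p under 0.05. Over all genes, 5.93% had week 6 above without overlap, and 1.74% were higher at such a p. The muscle genes were at low levels. Atp2a1, the calcium pump of fast muscle, had 32.7, 11.2 and 20.8 CPM at week 6, against 7.36, 8.87 and 7.73 CPM at week 2 (1.44 ± 0.63), and Acta1, skeletal actin, had 89, 23 and 52.5 CPM at week 6, against 16.6, 24.8 and 21.3 CPM at week 2 (1.39 ± 0.73). Myh1, a fast myosin, had 8.9, 2.83 and 7.02 CPM at week 6, against 2.14, 1.76 and 0.71 CPM at week 2 (2.03 ± 0.80). Replicates 1 and 3 of week 6 were high and replicate 2 was close to week 2. Summed over the list the level was 303, 90.9 and 196 CPM at week 6, against 78.4, 92.2 and 90.2 CPM at week 2, and the median was 0.83 without replicate 1 of week 6. All 17 were also above 0 between week 6 and week 2 around PCL (median 1.16) and around ACPC-NP (median 2.47), the third scaffold of the series. The part that muscle taken with the bone has in any other difference was not tested.

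Of 16 tested endothelial genes 13 were below 0 (median -0.59), and 0 had an unadjusted p under 0.05. In 3 of them the weeks did not overlap, against 7.93% of all genes with week 6 below. The list's median was -0.32 without replicate 2 of week 6. Plvap, the diaphragm protein of fenestrated and sinusoidal vessels, had 48, 17.6 and 53.5 CPM at week 6, against 48.3, 79 and 122 CPM at week 2 (-1.06 ± 0.60), and Cdh5, the adhesion protein of endothelial junctions, had 17.8, 5.62 and 14.4 CPM at week 6, against 15, 19.2 and 33.5 CPM at week 2 (-0.84 ± 0.72). Replicate 2 of week 6 was the lowest and replicate 3 of week 2 the highest in both. Pecam1, also made by platelets and leukocytes, differed by -0.29 ± 0.35. Vegfa, the main vessel growth factor, had 149, 81.2 and 119.9 CPM at week 6, against 81.2, 91.9 and 208 CPM at week 2 (-0.12 ± 0.63), and Apln, a ligand made by sprouting vessels, was lower without overlap (-1.40 ± 0.66). In the marrow stroma and fat list, 9 of 13 were below 0 (median -0.31). Cxcl12, the chemokine that holds blood stem cells in the marrow, had 25.8, 10.3 and 23.3 CPM at week 6, against 27.7, 31.5 and 38.2 CPM at week 2, lower in every week 6 library (-0.71 ± 0.52). The 4 above 0 were the fat-cell and macrophage genes Lpl and Fabp4, with Adipoq (0.41 ± 0.87) and Angpt1 (0.07 ± 0.27). The other tested fat genes, Pparg, Cebpa, Cfd and Lipe, were below 0. Lpl, lipoprotein lipase, had 355, 83.8 and 56.4 CPM at week 6, against 34.5, 29.5 and 65 CPM at week 2. Fabp4, a fatty acid carrier, had 258, 69.6 and 73.4 CPM at week 6, against 55.2, 43.1 and 83.9 CPM at week 2. Replicate 1 of week 6 was the highest library in both, and without it the differences were 0.72 and 0.25.

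Red cell genes were mostly on the lower side at week 6, with differences from -0.82 to 0.08. Of 20 tested erythroid genes 19 were below 0 and 15 of 20 had week 6 below week 2 without overlap, where 7.93% of all genes did. The median difference was -0.39. Slc4a1, the anion exchanger of the red cell membrane, had 3233, 4075 and 4621 CPM at week 6, against 5595, 5575 and 5296 CPM at week 2 (-0.47 ± 0.26). Trim58, a ubiquitin ligase of late erythroblasts, had 42.8, 60.8 and 65.4 CPM at week 6, against 106, 96.5 and 78.7 CPM at week 2 (-0.73 ± 0.23). Epb42, a membrane skeleton protein, differed by -0.56 ± 0.25, Alas2, the first enzyme of haem synthesis in red cells, by -0.40 ± 0.25, and Klf1 by -0.36 ± 0.25. Rhag, a membrane channel, had 146, 139.9 and 163 CPM at week 6, against 425, 184 and 187 CPM at week 2, a difference of -0.82 ± 0.36 that was -0.31 without replicate 1 of week 2. Summed over the list, the level was 31628, 39851 and 44045 CPM at week 6, against 51103, 60049 and 41202 CPM at week 2, and the sums overlap. The beta globin gene Hbb overlapped too, at 21551, 27973 and 30604 CPM at week 6, against 34202, 44369.8 and 26090.3 CPM at week 2 (-0.39 ± 0.29). Globin genes have close copies between which reads may be split, and red cells had been lysed before RNA was made.

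Granulocyte progenitor and platelet genes were on the lower side by amounts that varied with single libraries, and mature neutrophil genes were near 0. Of 8 tested granulocyte progenitor genes all were below 0 (median -0.28), 2 without overlap, against 7.93% of all genes. The list's median was -0.04 without replicate 1 of week 2 and -0.50 without replicate 3 of week 2. Prtn3, a protease of early granules, had 68.2, 65.7 and 59.5 CPM at week 6, against 169, 168 and 90.4 CPM at week 2, without overlap (-1.14 ± 0.46), and Elane, neutrophil elastase, had 131, 209 and 215 CPM at week 6, against 360.4, 289 and 149 CPM at week 2 (-0.53 ± 0.43). Mature neutrophil genes had a median of 0.03 over 17, and S100a8 differed by -0.31 ± 0.27. All 10 tested megakaryocyte and platelet genes were below 0 (median -0.29), 2 of them without overlap, against 7.93% of all genes. Their median was -0.82 without replicate 3 of week 6. Clec1b, the platelet receptor for podoplanin, differed by -0.91 ± 0.43. Hp, haptoglobin, which binds free haemoglobin and is made by neutrophils in the marrow, had 126, 143 and 376 CPM at week 6, against 549, 456 and 558 CPM at week 2, lower without overlap (-1.28 ± 0.55). Fech and Blvrb, enzymes at the end of haem synthesis and of haem breakdown, differed by -0.53 and -0.52, both without overlap. Cd34, a gene of blood progenitors and vessels, had 9.28, 6.75 and 8.3 CPM at week 6, against 12.7, 13.3 and 18.5 CPM at week 2 (-0.87 ± 0.38).

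Lymphoid lists differed by small amounts and not all on 1 side. Of 19 tested T cell genes 13 were above 0 (median 0.17), of 17 B cell genes 12 (median 0.11), and of 10 regulatory T cell and Th2 genes 9 (median 0.27). Of 16 tested NK and cytotoxic genes 9 were above 0 (median 0.11). Of 10 tested plasma cell genes 8 were below 0 (median -0.18), 2 of them without overlap, against 7.93% of all genes. Single libraries carried some of these values: the T cell median was 0.00 without replicate 1 of week 6 and 0.50 without replicate 2 of week 2, the B cell median was 0.05 without replicate 1 of week 2, and the NK and cytotoxic median was -0.11 without replicate 3 of week 2. Cd5, a surface receptor of T cells and some B cells, had 24.4, 14.8 and 15.2 CPM at week 6, against 8.26, 11.9 and 11.1 CPM at week 2 (0.80 ± 0.27). Ccr7, the receptor that leads lymphocytes and dendritic cells to lymph nodes, had 70, 55.2 and 55.5 CPM at week 6, against 16.6, 43.5 and 54.7 CPM at week 2, without overlap but with replicate 3 of week 2 close to week 6 (0.65 ± 0.37). Il1rl1, the receptor for interleukin 33, had 30.8, 41.1 and 28.8 CPM at week 6, against 23.6, 23.6 and 22.4 CPM at week 2 (0.53 ± 0.17), and Foxp3, the factor of regulatory T cells, overlapped at 3.41, 2.53 and 2.89 CPM at week 6, against 1.64, 2.43 and 3.23 CPM at week 2 (0.27 ± 0.29). Vpreb1, part of the surrogate light chain of early B cells, had 15.6, 16.8 and 20.9 CPM at week 6, against 9.5, 7.82 and 10.8 CPM at week 2 (0.92 ± 0.29). Irf4, a factor of activated lymphocytes and plasma cells, is 1 of the 2 genes above 0 in the plasma cell list and had 447, 367 and 406 CPM at week 6, against 178, 279 and 322 CPM at week 2 (0.65 ± 0.28). Cd83, a surface protein of activated dendritic cells and lymphocytes, had 258, 153 and 182 CPM at week 6, against 66.7, 123 and 121 CPM at week 2 (0.94 ± 0.29). Of the genes named here, none but Foxp3 overlapped between the weeks, but most were named for a small p. Week 6 lay above week 2 without overlap in 2 of 19 T cell genes and 0 of 17 B cell genes. It did so in 1 of 10 regulatory T cell and Th2 genes and 1 of 16 NK and cytotoxic genes. Over all genes that share was 5.93%.

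**Figure D4:**
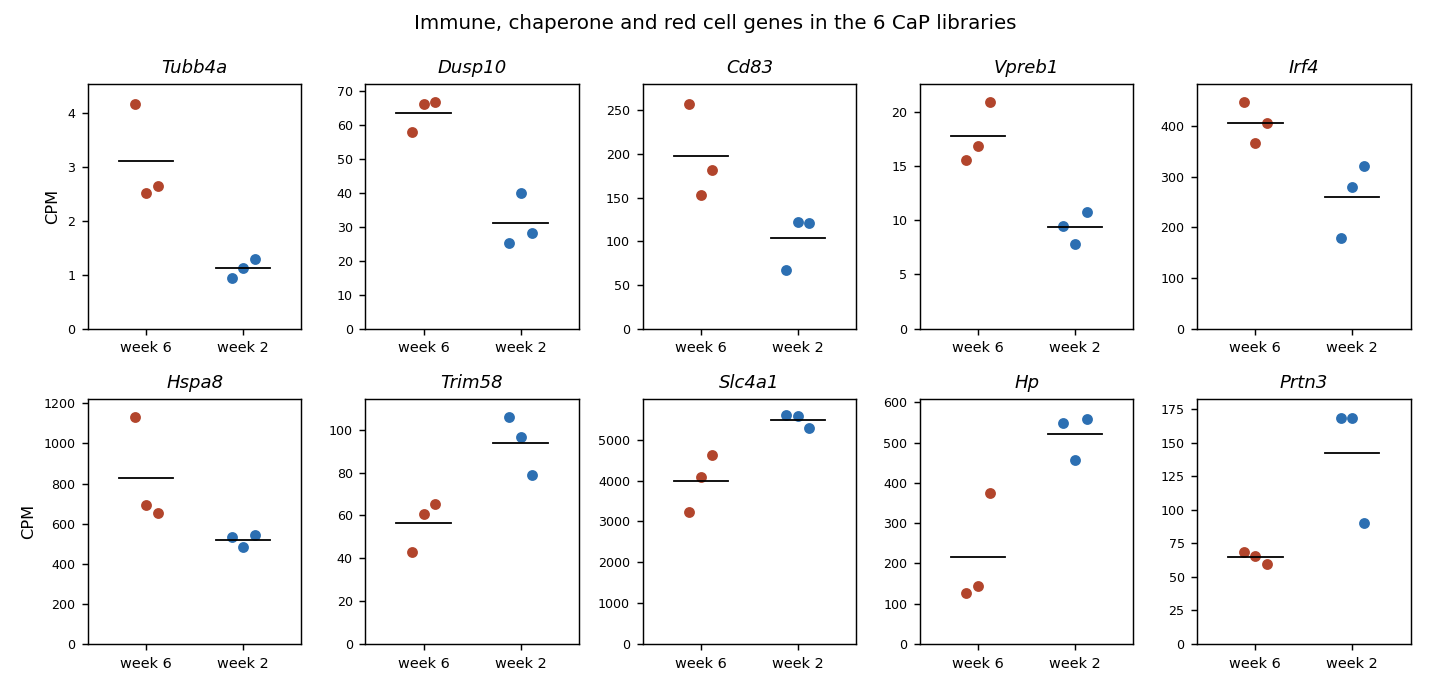
Level in CPM (vertical axes, each from 0) of 10 genes in the 3 CaP libraries of week 6 (red) and the 3 of week 2 (blue), with the mean as a bar. Most are immune, chaperone or red cell genes, while Tubb4a and Dusp10 are among the genes of smallest unadjusted p. No gene shown overlaps between the weeks: the first 6 lie higher and the last 4 lower at week 6, and none passed the adjusted test.

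Macrophage genes were balanced. Of 19 tested monocyte and macrophage genes 8 were above 0 (median -0.01), of 16 M1-type genes 7 (median -0.12) and of 17 M2-type genes 10 (median 0.07). Csf1r, the growth factor receptor of macrophages, had 472, 262 and 219 CPM at week 6, against 219, 270.4 and 287 CPM at week 2 (0.30 ± 0.27), with replicate 1 of week 6 highest, as it was for Cd68 at 319, 153 and 158 CPM at week 6, against 136, 138 and 170.2 CPM at week 2 (0.51 ± 0.34). Il1b, an early inflammatory cytokine, had 569.7, 534 and 989.5 CPM at week 6, against 242, 451 and 899 CPM at week 2 (0.39 ± 0.77). Il6 had 3.23, 4.53 and 5.12 CPM at week 6, against 3.78, 5.52 and 11.6 CPM at week 2 (-0.70 ± 0.93), and Il10, which restrains inflammation, had 1.01, 0.61 and 1.28 CPM at week 6, against 1.07, 0.753 and 1.3 CPM at week 2 (-0.11 ± 0.86). The intervals of these 3 cytokines are wide, -1.24 to 2.03 for Il1b, and a 2-fold difference in either direction lies inside each. Arg1, the arginase of M2-type macrophages, had 4.97, 1.39 and 3.04 CPM at week 6, against 2.96, 6.82 and 9.86 CPM at week 2 (-1.05 ± 1.11). Mrc1, the mannose receptor, had 44.6, 59.4 and 53.4 CPM at week 6, against 73.5, 61.4 and 60.7 CPM at week 2 (-0.32 ± 0.39), and Clec10a, a lectin of macrophages and dendritic cells, differed by -0.56 ± 0.22. Tnf and Tnfsf11, the genes of tumour necrosis factor and RANKL, were listed at 0 in all 6 libraries. Whether the annotation used for counting could assign reads to them is not known, so the 0 is not read as a level.

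Inflammatory signalling genes followed single libraries. All 20 tested interferon response genes were below 0 (median -0.44), yet 0 of 20 separated the weeks. Their summed level was 1136, 2052 and 1616 CPM at week 6, against 3477, 2457 and 1699.9 CPM at week 2, with replicate 1 of week 2 the highest. Irf7, the factor that amplifies the response, had 83.3, 121 and 75.6 CPM at week 6, against 313, 174 and 104 CPM at week 2 (-1.08 ± 0.66). Isg15, a ubiquitin-like protein, had 6.5, 8.28 and 4.13 CPM at week 6, against 31, 9.5 and 5.8 CPM at week 2 (-1.29 ± 0.86). Rsad2, an antiviral enzyme, differed by -0.77 ± 0.37. Irf7 and Isg15 both overlapped between the weeks. Without replicate 1 of week 2 the list's median was -0.11, and without replicate 3 of week 2 it was -0.76. Of 13 tested NF-kB target genes 11 were above 0 (median 0.56). Nfkb2, a subunit of the factor, had 392, 294 and 425 CPM at week 6, against 127, 213 and 334 CPM at week 2 (0.72 ± 0.47), with replicate 1 of week 2 the lowest and replicate 3 of week 2 inside the week 6 range. The list's median was 0.29 without the first of these and 0.99 without the other. Among 26 tested chemokines 9 were above 0 (median -0.21). Cxcl13, which draws B cells into follicles, had 19.7, 7.54 and 1.19 CPM at week 6, against 1.07, 0.837 and 1.46 CPM at week 2 (3.08 ± 0.99): replicates 1 and 2 of week 6 were high and replicate 3 was at the week 2 level.

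Heat shock and chaperone genes were mostly on the higher side. Of 17 tested heat shock and chaperone genes 14 were above 0 (median 0.26), 7 with week 6 above week 2 without overlap, where 5.93% of all genes did. Hspa8, the constitutive HSP70, had 1132, 691 and 654 CPM at week 6, against 531, 485 and 543 CPM at week 2 (0.67 ± 0.21). Its co-chaperone gene Dnaja1 had 469, 305 and 357 CPM at week 6, against 209, 233 and 272 CPM at week 2 (0.66 ± 0.30), and Hsph1, a nucleotide exchange factor for HSP70, had 218, 124 and 119.9 CPM at week 6, against 96.5, 82.3 and 81.7 CPM at week 2 (0.83 ± 0.38). Hspa1b, the inducible HSP70, had 11.8, 2.27 and 15.5 CPM at week 6, against 2.59, 2.3 and 3.19 CPM at week 2 (1.86 ± 0.88), and its reads may be split with the near-identical Hspa1a. Cryab, a small heat shock protein that muscle also makes, differed by 0.91 ± 0.50. Replicate 1 of week 6, the library with the highest muscle, Fn1, Mmp12 and Lpl levels, was the highest for Hspa8, Dnaja1 and Hsph1, and the part of muscle or macrophage RNA in these values was not tested. Without that library the list's median was 0.21.

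Of 23 tested immediate early genes 19 were above 0 (median 0.33), 1 without overlap, against 5.93% of all genes. The list's median was 0.08 without replicate 1 of week 2 and 0.67 without replicate 3 of week 2. Nr4a1, an orphan nuclear receptor induced within minutes of a stimulus, had 579.6, 244 and 335 CPM at week 6, against 91.5, 157 and 257 CPM at week 2 (1.20 ± 0.51). Its ranges overlap, since replicate 2 of week 6 lies below replicate 3 of week 2. Of 15 tested clock genes 11 were above 0 (median 0.30), 3 without overlap, against the same 5.93%. Their median was 0.10 without replicate 1 of week 2. Per1, a repressor of the clock that stress hormones also induce, had 139, 115 and 103 CPM at week 6, against 47.4, 85 and 88.5 CPM at week 2 (0.69 ± 0.26), and Tef, an output factor, had 27.3, 24.4 and 27.2 CPM at week 6, against 15.8, 19.3 and 20.2 CPM at week 2 (0.51 ± 0.17). The hour at which tissue was taken is not given in the sources used here. Of 24 hypoxia and glycolysis genes 22 were above 0 but by little (median 0.17), and the median was -0.02 without replicate 1 of week 6. Car9, a hypoxia-induced carbonic anhydrase, was one of the 2 below 0 (-1.08 ± 0.48).

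Genes of cell division and respiration were mostly below 0 by little. Of 25 tested proliferation genes 20 were below 0, with a median of -0.11, and 5 had week 6 below week 2 without overlap, where 7.93% of all genes did. The median was -0.04 without replicate 1 of week 2. Mki67, the Ki-67 antigen of dividing cells, had 1192, 1283 and 1461 CPM at week 6, against 1498, 1294 and 1381 CPM at week 2 (-0.08 ± 0.25, interval -0.62 to 0.45). Of 25 oxidative phosphorylation genes 21 were below 0 (median -0.08), 3 without overlap, against the same 7.93%. Cox7a2, a subunit of cytochrome oxidase, had 18, 15.5 and 14.8 CPM at week 6, against 21.8, 22.3 and 19.8 CPM at week 2 (-0.40 ± 0.12), and Ndufa4 differed by -0.32 ± 0.12, both without overlap. Of 18 tested genes of oxidative stress defence 10 were above 0 (median 0.06), and 1 was lower at an unadjusted p under 0.05. Gclm, the modifier subunit of the enzyme that limits glutathione synthesis, was lower without overlap (-0.46 ± 0.20).

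Growth factor genes of repair included several low-level genes below 0: 10 of 15 tested, with a median of -0.75 that was -0.45 without replicate 3 of week 2. Igf2, a growth factor stored in bone, had 4.62, 2.35 and 2.7 CPM at week 6, against 6.62, 8.11 and 10.2 CPM at week 2 (-1.36 ± 0.77), and Igfbp5, which binds such factors to matrix, had 5.15, 2.09 and 3.61 CPM at week 6, against 11.3, 5.94 and 8.16 CPM at week 2 (-1.22 ± 0.65). Gal, the neuropeptide galanin, had 0.939, 0.348 and 1.09 CPM at week 6, against 2.22, 2.05 and 1.3 CPM at week 2 (-1.22 ± 0.52). In all 3 the weeks did not overlap. Over the list, 4 of 15 had week 6 below week 2 without overlap, against 7.93% of all genes. In the TGF-beta and BMP list, 13 of 30 were above 0 (median -0.05). Tgfb1, a factor released from resorbed bone, had 402, 296 and 335 CPM at week 6, against 264, 289 and 395 CPM at week 2 (0.12 ± 0.19, interval -0.28 to 0.53). Bmp2, a strong inducer of bone, had 1.01, 0.566 and 3.65 CPM at week 6, against 1.32, 1.97 and 3.16 CPM at week 2 (-0.31 ± 0.64). Its ranges overlap. Ltbp2, a matrix protein related to the TGF-beta binding proteins, had 27.1, 9.58 and 5.03 CPM at week 6, against 2.67, 3.76 and 8.24 CPM at week 2 (1.51 ± 0.77), and 0.59 without replicate 1 of week 6. Bmp1, the protease that trims procollagens, is listed with them and had 34.7, 30 and 49.1 CPM at week 6, against 52.4, 60.9 and 81 CPM at week 2, lower without overlap (-0.77 ± 0.23). Of 25 Wnt genes 10 were above 0 (median -0.08). Dkk3, of the Dickkopf family, had 4.55, 1.48 and 2.94 CPM at week 6, against 6, 6.11 and 16.3 CPM at week 2 (-1.65 ± 0.71), and Wnt10b, a ligand that favours osteoblasts over fat cells, had 12.5, 7.71 and 8.64 CPM at week 6, against 5.67, 5.81 and 7.14 CPM at week 2 (0.63 ± 0.32).

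**Figure D5:**
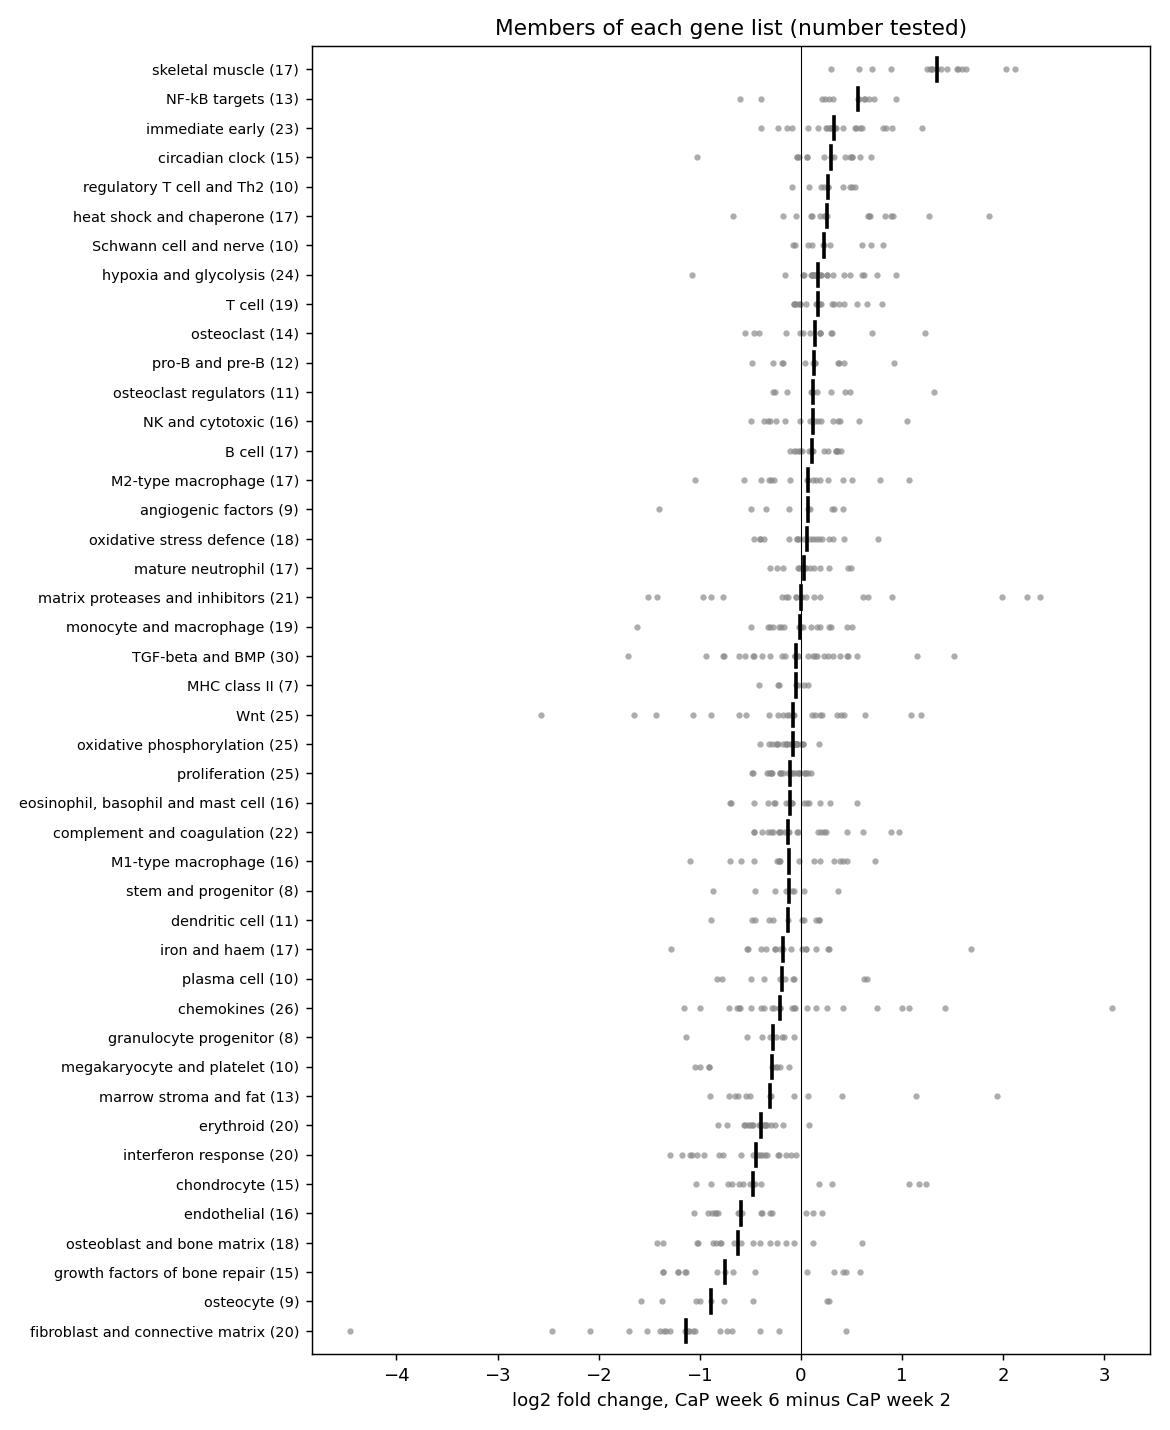
Log2 fold change of week 6 over week 2 around CaP (horizontal axis) of each tested member (grey points) of the 44 lists with 5 or more tested members, sorted by the list's median (black bar). The medians run from -1.13 for fibroblast and connective matrix genes to 1.35 for skeletal muscle genes, against -0.02 over all genes tested.

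The remaining lists with 5 or more tested members had medians near 0. Above 0 were 8 of 12 tested pro-B and pre-B genes (median 0.13), 3 without overlap, against 5.93% of all genes. So were 8 of 11 osteoclast regulators (median 0.12), 8 of 10 Schwann cell and nerve genes (median 0.22) and 5 of 9 angiogenic factors (median 0.07). Fewer than 1 in 2 members were above 0 in the others: 2 of 8 stem and progenitor genes (median -0.12), 6 of 16 eosinophil, basophil and mast cell genes (median -0.11), 5 of 11 dendritic cell genes (median -0.13), 2 of 7 MHC class II genes (median -0.05), 8 of 22 complement and coagulation genes (median -0.12) and 7 of 17 iron and haem genes (median -0.18).

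The genes with the smallest unadjusted p at a mean log2 CPM of at least 1 are given as such, since none passed the adjusted test. On the lower side stood Pycr1, the last enzyme of proline synthesis, an amino acid abundant in collagen, with 1.36, 1.31 and 2.47 CPM at week 6, against 3.91, 4.89 and 4.18 CPM at week 2 (-1.34 ± 0.27, unadjusted p 0.000166 and adjusted p 0.87 from edgeR). Its 3 week 2 libraries were alike and all above week 6. C1qtnf3, a secreted protein related to adiponectin and expressed by skeletal cells, had 1.22, 0.436 and 1.95 CPM at week 6, against 8.63, 7.07 and 25.6 CPM at week 2 (-3.52 ± 0.88). Kdelr3, which returns proteins to the endoplasmic reticulum, had 10.6, 7.4 and 15.8 CPM at week 6, against 19.2, 21.3 and 24.1 CPM at week 2 (-0.93 ± 0.24). Fkbp11, a prolyl isomerase there, had 9.53, 10.5 and 13.9 CPM at week 6, against 21.9, 21.2 and 15.1 CPM at week 2 (-0.78 ± 0.20). In these 3 genes every week 6 library lay below every week 2 library. Ggcx, the vitamin K-dependent carboxylase that modifies osteocalcin, had 10.7, 10.3 and 12.9 CPM at week 6, against 14.8, 16.1 and 19.5 CPM at week 2 (-0.57 ± 0.16). Mest, an imprinted gene of mesenchymal tissue, had 0.591, 0.61 and 1.19 CPM at week 6, against 1.93, 3.01 and 5.4 CPM at week 2 (-2.12 ± 0.53). The remaining genes on that side were Maged2 (-0.84), Chp1 (-0.54), Tbcel (-0.84), Kcne3 (-0.94), Scara3 (-1.44) and Thbs2. Adamts18, a metalloprotease gene below that level and chosen because DESeq2 called it, had 3, 0 and 3 reads at week 6, against 13, 27 and 28 reads at week 2 (-3.41 ± 0.73).

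On the higher side stood Tubb4a, a beta tubulin, with 4.17, 2.53 and 2.66 CPM at week 6, against 0.945, 1.13 and 1.3 CPM at week 2 (1.47 ± 0.31). Dusp10, a phosphatase that switches off the kinases p38 and JNK, had 58, 66 and 66.6 CPM at week 6, against 25.3, 40 and 28 CPM at week 2 (1.03 ± 0.24). Ust, which sulphates the sugar chains of proteoglycans, had 10.2, 16.8 and 14 CPM at week 6, against 4.03, 5.73 and 7.77 CPM at week 2 (1.22 ± 0.36). The aminoacyl-tRNA synthetase gene Iars had 96.5, 107 and 102 CPM at week 6, against 77.6, 76 and 80.8 CPM at week 2 (0.39 ± 0.12). In these 4 every week 6 library exceeded every week 2 library. Usp22, a histone deubiquitinase, differed by 0.52 ± 0.16, Jade2, a scaffold of histone acetyltransferases, by 0.57 ± 0.17, the splicing factor gene Tra2a by 0.47 ± 0.13, the kinase gene Map3k1 by 0.41 ± 0.13 and Arhgap17 by 0.36 ± 0.11. Vpreb1 and Cd83, described above, complete the set with the second synthetase gene Cars (0.44 ± 0.14).

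Whether the change over time differed between CaP and the other scaffolds was tested gene by gene in the same fit. The other scaffolds are PCL alone and ACPC-NP, in which PCL carries nanoparticles made of chitosan and amorphous calcium phosphate, each with 3 WT libraries at week 6 and 3 at week 2. Both tests use the same 6 CaP libraries. For CaP minus PCL, edgeR called 0 of 11814 genes (0%). An unadjusted p under 0.05 was reached by 198, and the smallest adjusted p was 1. DESeq2 called 2 and voom 0. Nxph4, a neurexin ligand, had a change of 0.96 ± 0.35 around CaP and -1.51 ± 0.35 around PCL, a difference of 2.47 ± 0.50. Foxp3 had 0.27 ± 0.29 around CaP and 2.07 ± 0.31 around PCL (difference -1.79 ± 0.42), and Wnt5a, a Wnt ligand, 0.36 ± 0.58 and -2.59 ± 0.62 (difference 2.96 ± 0.84). Pcp4l1, the other gene of DESeq2, had 0.973, 0.61 and 0.142 CPM at week 6, against 37.8, 0.711 and 1.81 CPM at week 2: 1 library holds its change around CaP, which was -4.49 ± 1.59 with that library and -1.09 without it.

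For CaP minus ACPC-NP edgeR also called 0 genes (0%), but 1673 had an unadjusted p under 0.05, DESeq2 called 192 and voom 169, and the smallest adjusted p of edgeR was 0.244. ACPC-NP week 2 replicate 3 had a normalisation factor (TMM) of 0.7065, against 0.9503 to 1.113 in the other libraries of the series. It is called below the library that stands apart, and no outlier test was run. Without it edgeR called 0 genes, with 937 at an unadjusted p under 0.05. Trim58 had a change of -0.73 ± 0.23 around CaP and 0.79 ± 0.23 around ACPC-NP, a difference of -1.52 ± 0.33, which was -1.31 without that library. Of the 20 tested erythroid genes 1 was above 0 around CaP, 19 around ACPC-NP and 5 around PCL. The difference between these counts was not tested, and the ACPC-NP count was not repeated without the library that stands apart. Hspa1b had 1.86 ± 0.88 around CaP and -4.21 ± 0.96 around ACPC-NP (difference 6.07 ± 1.29), and the difference was 3.77 without the library that stands apart. Tgfbr1, a receptor for TGF-beta, had 0.27 ± 0.15 and -0.68 ± 0.15 (difference 0.95 ± 0.21), and Map4k5, a kinase, -0.36 ± 0.14 and 0.67 ± 0.14 (difference -1.03 ± 0.20). By itself, edgeR's comparison of week 6 with week 2 called 0 genes around PCL, 1 around ACPC-NP, Gal, and 0 around CaP. Of 11814 genes, 1166, 2340 and 570 had an unadjusted p under 0.05, where 591 would by chance. These counts come from separate tests, and the 2340 were obtained with the library that stands apart. They do not test a difference between scaffolds. In edgeR's direct test of CaP minus PCL, 198 genes reached such a p.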

How the data were processed

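Per gene symbol and library, the values deposited by the authors are read counts, not normalised, in 1 table of 18 libraries. The submitters' processing notes name bcl2fastq 2.20.0 for demultiplexing, STAR 2.7.9a for alignment, the build Rnor_6.0 and, for counting, featureCounts with Subread 2.0.1. Neither annotation nor strand setting is stated there, so overlapping genes and near-identical copies may share reads. Of 17337 symbols, 11814 passed filterByExpr (minimum count 10, minimum total 15) and hold 99.98% of counts.

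The main test was edgeR 4.0.16 in R 4.3.3: TMM, 1 term per group of scaffold and week over all 18 libraries, robust quasi-likelihood (12 residual degrees of freedom), Benjamini-Hochberg adjustment within each of 3 comparisons. The biological coefficient of variation was 26.03%. CPM are edgeR's, scaled by TMM. Depth is given in the report, and counting error matters mainly for genes of a few reads. No libraries were duplicates (lowest chi-square per degree of freedom within a CaP group 41.5). The script was tested on simulated counts.

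Gene lists (45, of 838 entries; 774 matched the table's symbols, 6 an older symbol and 58 none) are described by counts and medians, with no set test. The comparison, the lists and the genes were chosen with earlier results of these data known. Named were the 12 genes of smallest unadjusted p per direction at a mean log2 CPM of at least 1, a fixed panel of bone and immune genes, from each list members of smallest p or highest level, and the genes of smallest p in each test between scaffolds, of which 1 is not reported here. Alternatives were DESeq2 1.42.0, voom with quality weights (limma 3.58.1), DESeq2 size factors, no filter, a replicate block, fewer libraries, and each library left out.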

Additional observations from a re-analysis of the deposited data

How the results depend on the processing

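For week 6 against week 2 around CaP, 0 genes were called higher and 0 lower with DESeq2 size factors, no filter, voom, only the CaP libraries, without ACPC-NP week 2 replicate 3, and with each CaP library left out (0 to 0). The DESeq2 Wald test called 1 higher and 4 lower. For CaP minus PCL the count was 2 with DESeq2 and 0 to 1 with single libraries left out (1 without PCL week 6 replicate 1). For CaP minus ACPC-NP it was 192 with DESeq2, 169 with voom, and 0 to 57 with single libraries left out (57 without ACPC-NP week 2 replicate 1 and 1 without ACPC-NP week 2 replicate 2). The causes were not tested. Pairing of the libraries by replicate number was not seen, but 3 libraries a week are too few to exclude it. The deviations of same-numbered CaP libraries correlated at -0.16, 0.29 and 0.24, and 2 of 6 libraries correlated best with their own number. With the replicate block, 0 genes were called in every comparison. Of 146 named genes, the sign turned in 10 under some setting. Acp5 was 0.01 with DESeq2 size factors, with DESeq2, with only the CaP libraries and without ACPC-NP week 2 replicate 3, and Il10 was 0.14 and Vegfa 0.13 with voom. With each CaP library left out, log2 fold changes ran from -0.32 to 0.25 for Acp5, -1.01 to 0.35 for Ctsk, -2.98 to 0.02 for Acan, -1.43 to 0.12 for Bmp2, -0.35 to 0.14 for Il10, -0.36 to 0.44 for Vegfa, -0.09 to 0.51 for Csf1r, -0.05 to 0.69 for Fn1, -0.29 to 1.16 for Spp1 and -0.33 to 0.69 for Wnt5a. Of 572 list medians under these settings, 563 moved by less than the spread between libraries. That spread is the pooled within-week standard deviation of the list's mean log2 CPM per library. Leaving out 1 of 3 libraries seldom moves a median by more, so the count does not measure stability. With each CaP library left out, medians ran from -1.24 to -0.32 for osteoblast and bone matrix, -0.76 to -0.11 for interferon response and -2.98 to 0.09 for chondrocyte genes. The intervals are for single genes and are not adjusted for the number of genes tested, so they are not the limit of detection. Tnmd and Col1a1 have intervals that exclude 0 and were not called by edgeR. With 3 libraries a week, such changes, smaller ones, and changes in genes of a few reads could be missed.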
